A study of Glycine max with 2 samples.

Results

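Of 119743 stretches of open chromatin (peaks) called in nuclei of cotyledon-stage soybean seeds, 1000 were chosen for being more open in endosperm nuclei than in all other nuclei. Nuclei of pooled Williams 82 seeds gave 1 library of nuclear RNA and 1 library of accessible chromatin (ATAC), and the 2 libraries share the barcodes of all 8636 nuclei, so that both readouts come from the same nucleus. Plants were untreated, all groups described here come from the same pool of seeds, and as each kind of library was made once, no p-value is given and the spread between seeds is unknown. Intervals are 95% intervals that cover counting error only, unless stated. Those of shares of peaks or nuclei treat the peaks or nuclei as independent.

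The endosperm group was defined by RNA alone. A nucleus belonged to it when Glyma.02G281500, Glyma.17G083600 and Glyma.09G025800 together gave at least 5 UMIs (unique molecular identifiers, each 1 captured RNA molecule) and at least 15 UMIs per 10000, which 907 nuclei (10.5%) did. The barcodes were then divided into odd-numbered and even-numbered nuclei. In the odd-numbered nuclei, with 440 nuclei in the group and 3878 outside it, the ATAC fragments overlapping each peak were summed and scaled to counts per 1000000 peak fragments (CPM). The ratio of the endosperm group to the other nuclei was taken after adding 1 to both values. There were 55664 peaks with at least 200 fragments in the odd-numbered nuclei (46.5% of all peaks, called the tested peaks here), and the 1000 of these with the highest ratio are the members. Everything measured on the even-numbered nuclei, 467 nuclei of the group against 3851 others, concerns nuclei that took no part in the choice, although they come from the same library.

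The endosperm of a seed is the tissue that arises beside the embryo at fertilization and feeds it. In soybean most of it is consumed as the embryo grows, while the aleurone, its outermost cell layer, persists. In an ATAC experiment a transposase cuts DNA where no nucleosome or compact chromatin protects it, so that fragments pile up at regulatory DNA, and peaks that are open in 1 tissue only often mark genes that are regulated there. Soybean chromosomes have arms rich in genes and long middle regions rich in repeats. No gene was assigned to the members and no sequence was read, since a genome and gene annotation of the files' build were not used here; positions are on assembly Wm82.a2.v1, as the peak file gives them.

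The RNA of the group was checked against a list of 20 endosperm genes. They were taken from laser-captured endosperm of the globular stage, earlier than the stage of these nuclei, and from homologs of known endosperm regulators. RNA for Glyma.02G103200, the homolog of ZOU, an Arabidopsis transcription factor required for endosperm breakdown, stood at 90.8 UMIs per 1000000 (CPM of RNA) in the group (interval 83.5 to 98.7) and 4.86 in the other nuclei (4.15 to 5.67). Unlike the rest of the list, the ZOU homolog was picked with these nuclei in view, so its level is no independent check. Glyma.03G083700, a homolog of AGL80, a MADS-box factor of the Arabidopsis central cell and endosperm, stood at 32.8 (28.4 to 37.6) and 7.45 (6.55 to 8.43). Of the 20 genes, 6 had at most 7 UMIs over all nuclei, too few to compare, among them the AGL6 and both AGL62 homologs. Of the 14 with at least 10 UMIs, a minimum set after the values were seen, 10 were higher in the group, 6 of them at least 2-fold, and 3 were at least 2-fold lower. Glyma.04G248800 (4.38 against 4.30), Glyma.03G189100 (7.30 against 6.88) and Glyma.10G280400 (3.73 against 3.38) were higher only within counting error. Glyma.06G133300, which had the most UMIs of the list in the other nuclei, was lower in the group, at 80.6 against 132.6. Summed over the list the levels were 496 and 292 CPM of RNA. The ZOU homolog is included in these counts and sums. The label endosperm therefore rests on a part of its list. All 37 genes of 3 lists for other seed tissues were lower in the group, with sums of 133 against 323 for 7 embryo genes, 199 against 1115 for 15 seed coat epidermis genes and 1452 against 5014 for 15 outer integument genes.

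Group nuclei were deeper than the rest, with a median of 5551 against 2742 UMIs and 15991 against 7457 ATAC fragments, and 77.4% against 79.4% of their fragments lay in peaks. Of the 907 group nuclei, 221 (24.4%) also met the same limits for another tissue list, 190 of them for the outer integument list. Such nuclei can hold RNA of more than 1 cell or free RNA, and doublets were not called. They were kept. Without them a new set of 1000 peaks was chosen, 847 of them members. Of that set 843 were at least 2-fold higher in the even-numbered nuclei (3.28% of the peaks tested), against 840 of the members (2.82%). The 3 genes of the rule also divided the group. In 267 nuclei Glyma.02G281500 had the most UMIs of the 3, in 349 Glyma.17G083600 and in 268 Glyma.09G025800, and 23 nuclei with a tie were left out of this division. ZOU RNA was at 131.5 CPM of RNA in the nuclei led by Glyma.17G083600 and 143 in those led by Glyma.09G025800, but at 6.71 in those led by Glyma.02G281500. The AGL80 homolog was instead highest in the nuclei led by Glyma.02G281500, with 84.8, against 2.99 in those led by Glyma.17G083600 and 10.6 in those led by Glyma.09G025800.

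The members kept their openness in nuclei that had not been used to choose them. In the even-numbered nuclei 840 of the 1000 members were at least 2-fold higher in the endosperm group, against 2.82% of all tested peaks, and 999 had a ratio over 1. The median ratio was 2.45, with quartiles of 2.13 and 3.08 and a highest value of 8.16, and that of all tested peaks was 1.00. The median level of a member was 14.4 CPM in the group and 4.72 in the other nuclei, whereas the median tested peak had 10.5 and 10.3. The minimum of 200 fragments counted both groups of nuclei together. The lower a peak was outside the endosperm, the more fragments from the group it needed to pass. The low level of the members outside is therefore partly set by the choice. At least 4-fold higher were 121 members and no other tested peak (0.217% of the tested peaks). The 1000 tested peaks that came next in the odd-numbered order had a median ratio of 1.90, and 382 of them were at least 2-fold higher.

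**Figure D1:**
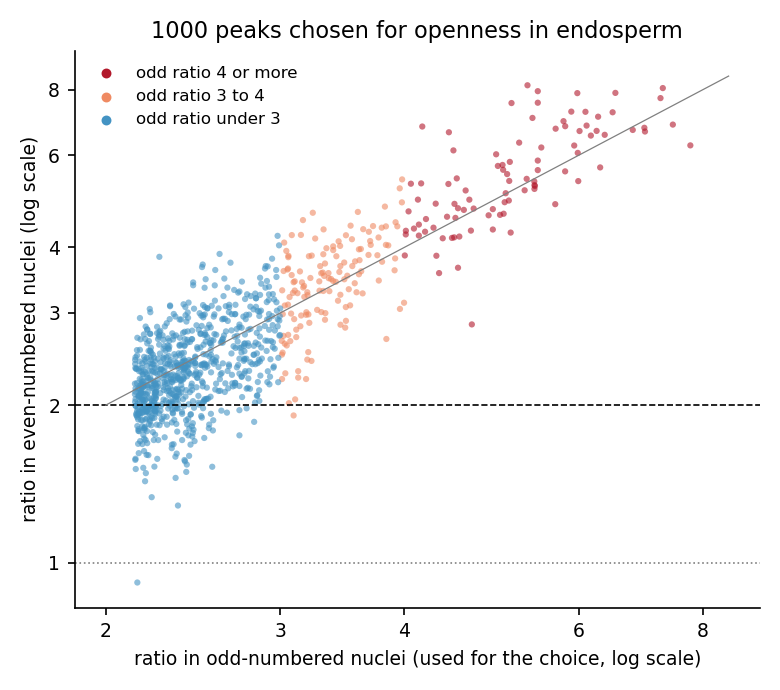
Ratio of the endosperm group to the other nuclei for each of the 1000 members, in the odd-numbered nuclei that chose them (x axis) and in the even-numbered nuclei (y axis), both on log scales. The grey diagonal marks equal ratios, the dashed line 2-fold (840 members at or above it) and the dotted line a ratio of 1 (1 member below it).

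Ratios in the odd-numbered nuclei, which chose the members, ran from 2.14 to 7.78. For a description they were divided at 3 and 4, limits set after the values were seen. In the even-numbered nuclei the 94 members with an odd ratio of 4 or more had a median ratio of 5.35 (quartiles 4.62 and 6.66), and all 94 were at least 2-fold higher. The 140 members between 3 and 4 had a median of 3.47, and the 766 under 3 had a median of 2.31, with 607 at least 2-fold higher. The order among members was largely kept, with a Spearman correlation of 0.741 between odd-numbered and even-numbered nuclei over the 1000 members, whose points share the library. Their median level in the other nuclei was 2.92, 4.08 and 5.12 CPM from the highest to the lowest odd ratio, and in the endosperm group it was 19.7, 16.4 and 13.3. A higher ratio at a like number of fragments goes with a lower level outside the group by construction.

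The limit of 1000 fell in a continuous range. The last 3 peaks inside it had odd ratios of 2.14 and the first 3 outside it also 2.14. In the even-numbered nuclei the last 3 inside had ratios of 2.44 (chr7:35681781-35683525), 2.10 (chr2:44559299-44561184) and 2.198 (chr19:41252143-41253508). The first 3 outside had ratios of 2.34 (chr8:35559027-35559720), 1.32 (chr10:295612-296878) and 1.37 (chr12:1057651-1058287). The only member with a ratio under 1 was of rank 974, chr15:48225193-48226685, with 27 fragments from the group and 148 from the other nuclei, a ratio of 0.917.

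The 10 members with the highest odd ratio were open in all 3 kinds of endosperm nuclei and low in the other tissues. The first, chr19:11477995-11478995, had 160 fragments in the even-numbered endosperm nuclei and 94 in the more numerous other nuclei, or 21.1 against 2.52 CPM. Without the added 1 this is a ratio of 8.36 (interval 6.44 to 10.9). Its level was 20.9 CPM in the nuclei led by Glyma.02G281500, 20.8 in those led by Glyma.17G083600 and 21.0 in those led by Glyma.09G025800. In nuclei outside the group that met 1 other list it was 0.734 in embryo nuclei, 1.65 in those of the seed coat epidermis and 1.21 in those of the outer integument. The 3 endosperm values do not differ beyond counting error, and all 3 lie above those of the other tissues. Odd-numbered nuclei of these tissues counted among the other nuclei in the choice.

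The second, chr19:11856350-11857438, had 26.9 CPM in the group and 3.06 outside it, a ratio of 8.79 (6.95 to 11.2). Its level was 22.1 in the nuclei led by Glyma.17G083600 and 29.9 and 31.0 in those led by Glyma.02G281500 and Glyma.09G025800, with intervals that overlap, and the embryo nuclei gave 1 fragment. The most open of the 10 was the third, chr19:11107903-11109254, with 71.5 against 7.99 CPM, from 543 and 298 fragments, a ratio of 8.95 (7.75 to 10.3). Its levels were 75.5, 64.2 and 76.4 in the 3 kinds of endosperm nuclei and 4.03, 4.50 and 6.32 in the embryo, epidermis and outer integument nuclei.

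The next members lay on other chromosomes. The peak of rank 4, chr4:19679313-19680529, had 37.1 against 3.94 CPM, a ratio of 9.42 (7.69 to 11.6). Rank 5, chr9:19621804-19623276, had 38.7 against 4.96, and rank 6, chr5:12614571-12615498, had 18.3 against 1.85. These 3 peaks had 6 fragments or fewer each in the embryo nuclei. Rank 7, chr18:15823816-15824828, had 27.7 against 3.27 CPM and no fragment in the embryo nuclei. With 2726542 peak fragments from those nuclei, a count of 0 allows up to about 1.1 CPM. This takes 3 fragments as an approximate upper limit and is not an exact interval.

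Rank 8, chr1:35834813-35836247, had 53.9 CPM (interval 44.2 to 65.1) in the nuclei led by Glyma.09G025800, 35.7 (28.6 to 44.0) in those led by Glyma.02G281500 and 34.6 (28.3 to 41.9) in those led by Glyma.17G083600. It was the only one of the 10 in which the interval of 1 kind of endosperm nuclei lay apart from the others. Rank 9, chr15:21504567-21505405, had the highest ratio of the 10 without the added 1, 11.01 (8.10 to 15.1), from 139 against 62 fragments. Rank 10, chr20:31557546-31558986, had 39.4 against 5.15 CPM. With 1 added, the ratios of the 10 ran from 6.27 to 8.06, against other nuclei without any UMI of the 3 rule genes from 11.8 to 26.3, and with 5 added from 3.40 to 5.89. The size of these ratios therefore depends on the nuclei compared and on the value added. After each even-numbered nucleus was thinned to 2000 peak fragments, a fragment in the peak of rank 3 was found in 53 of 381 endosperm nuclei (13.9%, interval 10.6 to 17.8%), in 32 of 2860 other nuclei (1.12%) and in 6 of the 2189 other nuclei without any UMI of the 3 rule genes (0.274%). Even the most open of these peaks thus gave a fragment in a minority of endosperm nuclei at this depth.

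**Figure D2:**
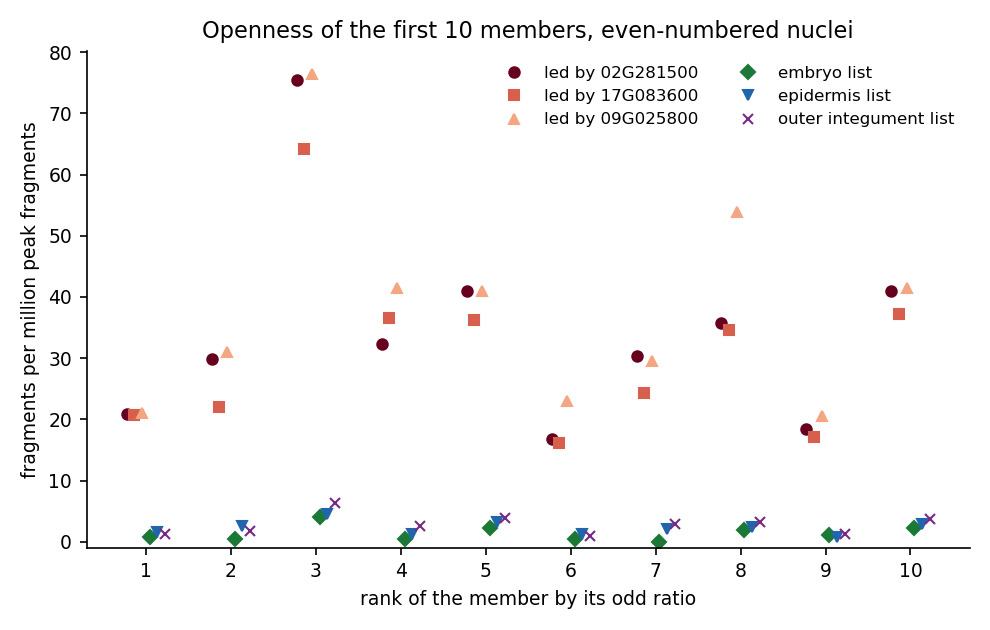
CPM of fragments (per 1000000 peak fragments, y axis) in the even-numbered nuclei for the 10 members with the highest odd ratio (x axis, by rank), in the nuclei led by each of the 3 rule genes and in the nuclei of 3 other tissue lists. Endosperm values run from 16.1 to 76.4 and those of the other tissues from 0.00 to 6.32.

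Ranks 1, 2 and 3 lay in 1 stretch of chromosome 19. Between chr19:11097482 and chr19:11857438, a length of 759957 bases, there were 6 tested peaks, and all 6 were members, of ranks 1, 2, 3, 17, 20 and 38. In the even-numbered nuclei their ratios ran from 6.27 to 8.16, and the highest ratio of all members was the 8.16 of rank 38, chr19:11401014-11402146. That peak had 29.5 CPM in the group, 2.74 outside it and 0.734 in the embryo nuclei. Of 12 further peaks there with too few fragments to be tested, 6 were at least 2-fold and 3 at least 4-fold higher in the even-numbered endosperm nuclei, against 9.35% and 0.757% of all peaks under the minimum. Fragments outside the peaks of this stretch were also denser in the group, at 117 against 63.5 per 1000000 fragments of any kind, a ratio of 1.84 (interval 1.72 to 1.97), whereas over the whole genome that ratio was 1.08. Nowhere else did more than 4 neighbouring tested peaks belong to the members. There was 1 run of 4, of ranks 198 to 884, within chr16:27949362-27973431, 4 runs of 3 and 39 runs of 2.

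Members were spread over all 20 chromosomes, with 993 on chromosomes and 7 on unplaced scaffolds. Their number ran from 26 on chromosome 12, or 10.9 per 1000 tested peaks, to 65 on chromosome 6. Per tested peak chromosome 18 held the most, 23.8 per 1000. The 94 members with an odd ratio of 4 or more fell on 19 chromosomes, most on chromosome 19 with 9, and none lay on chromosome 12. Windows of 1 Mb held at most 8 members. Apart from the stretch on chromosome 19, members mostly lay singly. Over all members 28.3% had another member within 100 kb. Among the 1000 tested peaks next in the odd-numbered order, 26.6% had another of these within 100 kb.

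Members lay more often than other peaks in the middle of chromosomes. The middle part, from 0.25 to 0.75 of a chromosome's length, held 344 of the 993 members (34.6%, interval 31.7 to 37.7%) against 22.5% of the tested peaks. The interval treats the members as independent, though 28.3% of all members had another within 100 kb. Of the 94 members with the highest odd ratios it held 37 (39.4%). The first 0.1 of a chromosome's length held 3 of these 94 (3.19%), against 19.01% of the tested peaks. The last 0.1 held 14 (14.9%), against 19.9% of the tested peaks. Peaks were sparser around the members. A member had a median of 204.5 other peaks within 500 kb on either side and a tested peak 226, but the 94 had a median of 108. Fewer than 50 other peaks within this distance were found around 22.3% of the 94 and 4.45% of the tested peaks.

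**Figure D3:**
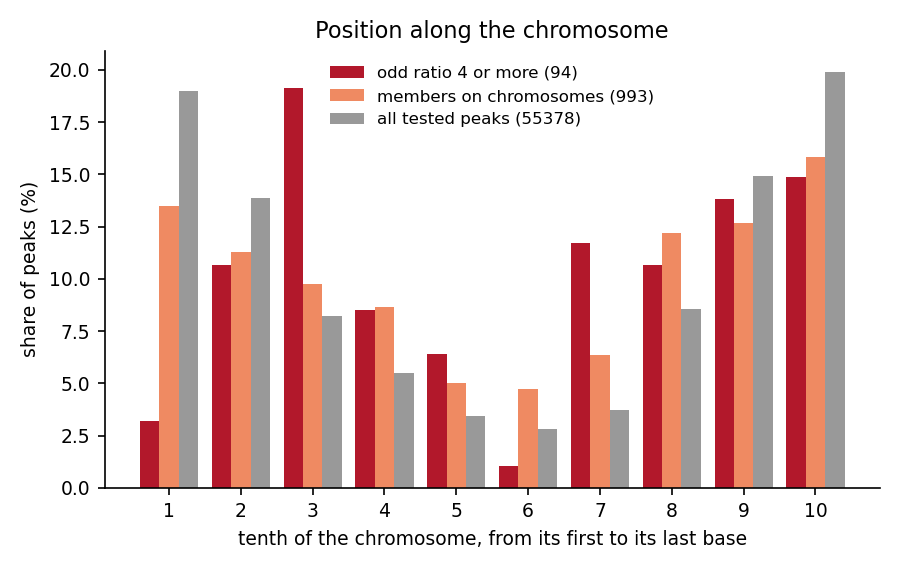
Share of peaks (y axis, percent) in each of 10 equal bins of the chromosome length (x axis) for the 94 members with an odd ratio of 4 or more, for all members on chromosomes and for all tested peaks. Tested peaks are densest at both ends (19.01% and 19.9% in the outer bins). Of the 94, 3.19% fell in the first bin, 19.1% in the third and 14.9% in the last.

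The position of the members moved with the total number of fragments in a peak. Members were weak peaks, with a median of 282 even-numbered fragments against 465 for tested peaks, and 568 of the 1000 fell in the lowest quartile of the tested peaks by fragments. Within each quartile members were still more often in the middle part, with 35.8% against 25.9% in the lowest and 29.0% against 18.0% in the highest, which held 31 members. When at least 400 fragments were asked of a peak, 25.2% of the 1000 peaks then chosen lay in the middle part, against 20.4% of the peaks tested. Members were also narrower, with a median width of 1662 bases against 2252. This difference was not seen among peaks with similar numbers of fragments, since in the lowest quartile members had a median width of 1422 bases and tested peaks 1407.

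Sets of 1000 peaks chosen in the same way for nuclei of the other tissue lists gave a scale for these values. The middle part held 19.2% of the embryo set, 22.0% of the seed coat epidermis set and 25.6% of the outer integument set, against 34.6% of the endosperm members. In the same order, 45.2%, 46.9% and 34.8% had another peak of their set within 100 kb, against 28.3% of the members. Among the first 94 peaks of each set, the median number of peaks within 500 kb was 231, 216 and 211.5, against 108. In the even-numbered nuclei 908, 983 and 637 peaks of the embryo, epidermis and outer integument sets were at least 2-fold higher in their own nuclei than in all others. The share of all tested peaks was not computed for that comparison. Against nuclei outside the endosperm group and the list, it was 3.95%, 3.36% and 1.3%. Most peaks of each of the 4 sets were thus at least 2-fold higher in their own even-numbered nuclei. The groups differ in their numbers of nuclei and in depth, and these differences between sets were not tested.

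Tested peaks beside the members that were not members themselves had an odd ratio of 2.14 or less by the choice, which took out any that were as open. Within 10 kb of a member they had a median ratio of 1.09 in the even-numbered nuclei, and 38 of 1308 (2.91%) were at least 2-fold higher. At 10 to 50 kb the median was 1.01, and beyond 200 kb it was 0.992, with 1.28% at least 2-fold higher. Within 10 kb of the 94 members with an odd ratio of 4 or more, 5 of 85 such peaks (5.88%) were at least 2-fold higher, and beyond 200 kb of them 1.32%.

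Within the peaks the fragments of the endosperm nuclei were concentrated at the centre. For the 94 members with an odd ratio of 4 or more, the endosperm group had 2.07 cut sites per peak and 50 bases, in CPM, within 250 bases of the centre, and 0.346 at 750 to 1000 bases from it, a ratio of 5.99. The other nuclei had 0.284 and 0.0749 there, a ratio of 3.79. The remaining 906 members had 0.963 at the centre in the endosperm group and 0.339 in the other nuclei, and tested peaks that were not members had 0.668 and 0.691. For the first 94 peaks of the embryo, epidermis and outer integument sets, in their own nuclei, the centre stood over the edges by 3.28, 2.56 and 3.36 times. Those peaks were wider, with medians of 1612, 1996 and 1516 bases against 1352 for the 94 members, so that the edge lay outside most of the members and inside many peaks of the other sets.

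**Figure D4:**
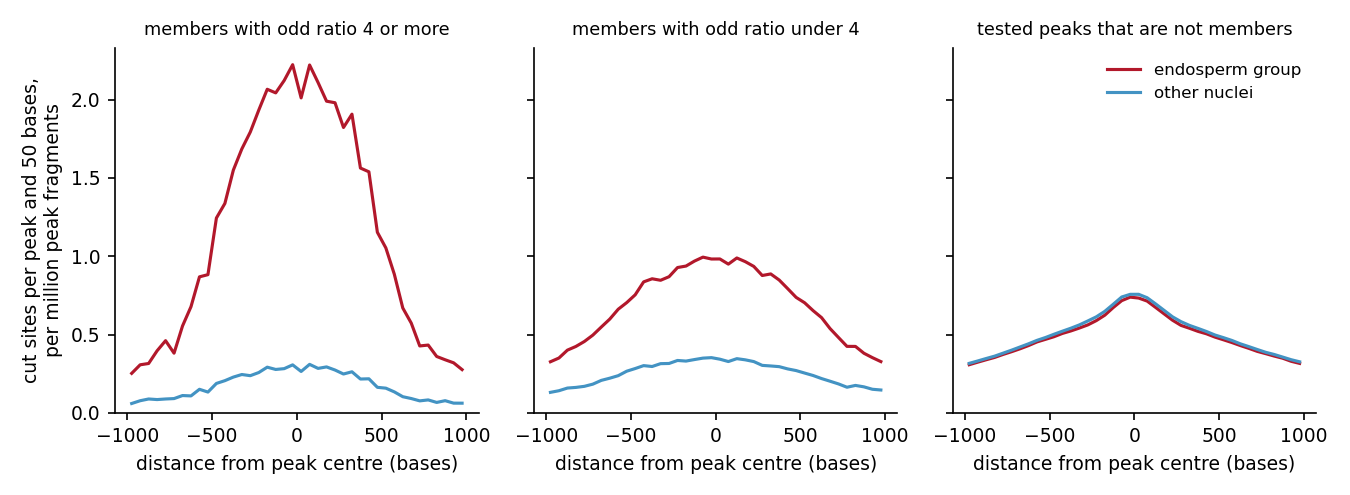
Cut sites per peak in bins of 50 bases, per 1000000 peak fragments (y axis), by distance from the peak centre (x axis, bases), in even-numbered nuclei of the endosperm group and in all other even-numbered nuclei. The lines stand far apart in both sets of members (2.07 against 0.284 near the centre of the 94) and lie together in the other tested peaks (0.668 against 0.691).

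Fragments in the members were also shorter in endosperm nuclei. Fragments under 150 bases, too short to span a nucleosome, made up 71.8% (interval 71.1 to 72.5%) of the fragments of the group in the 94 members, against 64.3% (63.4 to 65.1%) in the other nuclei. In the remaining 906 members the shares were 62.3% and 57.7%. In tested peaks that were not members the shares were 59.8% and 59.6%, so that the gap between the groups of nuclei was 0.2 percentage points there. The first 94 peaks of the other sets showed such a gap as well, with 67.9% in embryo nuclei against 61.0% in all other nuclei, 60.1% against 56.1% for the epidermis set and 58.9% against 55.6% for the outer integument set.

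The members were most open in the nuclei led by Glyma.09G025800 and least in those led by Glyma.02G281500. Against the nuclei outside the group, 877 members were at least 2-fold higher in the 133 even-numbered nuclei led by Glyma.09G025800 (5.3% of tested peaks), 818 in the 178 led by Glyma.17G083600 (3.54%) and 563 in the 146 led by Glyma.02G281500 (2.78%). The median ratios were 2.81, 2.55 and 2.12. Levels were highest in the nuclei led by Glyma.09G025800 for 592 members and lowest in those led by Glyma.02G281500 for 647, whereas among all tested peaks these shares were 32.5% and 36.4%. The share of fragments in peaks also differed, at 78.5%, 79.1% and 74.1% in the same order. When the peaks were chosen and measured per fragment of any kind, the median ratios were 2.72, 2.49 and 1.96. All 3 kinds of nuclei entered the choice together, in the proportions of the odd-numbered nuclei.

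Many members were open in more than 1 kind of endosperm nuclei. At least 2-fold higher in all 3 kinds were 453 members (1.04% of tested peaks), in 2 of them 386 (2.16%), in 1 of them 127 (4.21%) and in none 34 (92.6%). The choice on the whole group favours peaks that are open in several kinds. Of the 94 members with an odd ratio of 4 or more, 91 were at least 2-fold higher in all 3 kinds and the other 3 in 2 of them. Between the nuclei led by Glyma.17G083600 and those led by Glyma.09G025800, 8 members differed by at least 2-fold (2.99% of tested peaks), 2 higher in the former and 6 in the latter. Between those led by Glyma.02G281500 and those led by Glyma.17G083600 there were 148 (5.47%), of which 126 were higher in the nuclei led by Glyma.17G083600. Between those led by Glyma.02G281500 and those led by Glyma.09G025800 there were 185 (7.83%), of which 172 were higher in the latter. Fewer members thus differed between the 2 kinds of nuclei in which ZOU RNA was high than between either of them and the nuclei led by Glyma.02G281500.

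The level was highest in the nuclei led by Glyma.02G281500 for 159 members (15.9%), against 37.6% of tested peaks. The clearest, of rank 151, chr7:18183464-18185583, had 37.3 CPM in them, 0.988 in those led by Glyma.17G083600 (3 fragments) and 4.99 in those led by Glyma.09G025800, and 2.82 in nuclei outside the group. With 1 added, its level was 9.60 times the mean of the other 2 kinds. Rank 104, chr6:46234314-46237331, had 37.7 against 8.56 and 9.49, and rank 756, chr5:39904884-39907176, had 16.4 against 4.61 and 5.99. These 3 peaks, and the next 6, were picked on the even-numbered values themselves, so their contrasts are a description.

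Contrasts toward the other 2 kinds of nuclei were smaller. The members most led by Glyma.17G083600 nuclei were of rank 686, chr17:20392022-20393938, with 13.5 CPM against 5.74 and 4.50, rank 471, chr10:43217020-43219361, with 20.8 against 5.74 and 11.5, and rank 859, chr2:7812802-7814627, with 17.1 against 4.10 and 9.99. For Glyma.09G025800 they were of rank 573, chr19:22743224-22745260, with 16.98 against 6.56 and 4.61, rank 438 on scaffold28, with 16.0 against 4.51 and 8.23, and rank 804, chr19:36949746-36951966, with 31.96 against 5.74 and 21.1. The ratio to the mean of the other kinds was between 2.25 and 2.73 in these 6.

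Odd-numbered nuclei of the other seed tissues counted among the other nuclei in the choice, which disfavoured peaks open in them. Low levels in these tissues are therefore partly set by the choice. In them the members were near or below the level of nuclei outside both the endosperm group and the list. Against those nuclei, the members' median ratio was 0.949 in 182 embryo, 0.769 in 525 seed coat epidermis and 0.892 in 1607 outer integument nuclei. At least 2-fold higher were 44 members in the embryo (3.95% of tested peaks), 3 in the epidermis (3.36%) and 3 in the outer integument (1.3%). In other nuclei without any UMI of the 3 rule genes, the members had a lower median, 4.01 CPM. The median was 4.77 CPM in the embryo, 3.60 in the epidermis and 4.44 in the outer integument, so the embryo and outer integument lay above that level. For the 94 members with an odd ratio of 4 or more the median ratio in the embryo was 0.636 and the median level 1.47 CPM. The nuclei outside the group and the list, at 2.94 CPM, include some with UMIs of the 3 rule genes, and other nuclei without any such UMI had a median of 1.425 CPM, close to the embryo value. At the 2-fold threshold the 44 members higher in the embryo were 4.4% of all members, a share near that of all tested peaks. The highest ratio in the embryo nuclei was that of rank 610, chr6:48499005-48500275, with 15.0 CPM there, 12.1 in the endosperm group and 3.59 in the remaining nuclei. In the epidermis nuclei rank 854, chr19:32600341-32601483, had the highest ratio, with 9.30, 11.5 and 2.48.

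Some nuclei outside the group had the members open. A nucleus with only 1 to 4 UMIs of the 3 genes, or with at least 5 UMIs but fewer than 15 per 10000, counted among the others. Against the other nuclei without any UMI of these genes, the 94 members with an odd ratio of 4 or more had a median ratio of 2.31 in 862 even-numbered nuclei with 1 to 4 UMIs and 5.88 in 131 nuclei with at least 5 UMIs. The latter had a median of 8002 UMIs and 23817 fragments, above the endosperm group itself. Measured against nuclei without any UMI of the 3 genes, the median ratio of the 94 in the endosperm group rose from 5.35 to 8.19, and that of all 1000 members from 2.45 to 2.80, with 923 at least 2-fold higher (4.0% of tested peaks). Fragments on barcodes not called as nuclei, a measure of free DNA, had a median of 4.66 CPM in the members, near the 4.72 of the other nuclei. In the 94 it was 3.96 CPM, above the 2.92 of the other nuclei and the 1.425 of those without any UMI of the 3 genes. Over all tested peaks it was 7.49 CPM, below the 10.3 of the other nuclei. The part of free DNA in the level of the other nuclei was not tested.

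Single nuclei showed the same difference. After each even-numbered nucleus with enough fragments was thinned to 2000 peak fragments, which left out 86 nuclei of the group and 991 others, an endosperm nucleus had a median of 36 fragments in the 1000 members (5th and 95th percentiles 15 and 56) and another nucleus 9 (4 and 24). Without thinning the median shares were 18.2 and 4.57 per 1000 peak fragments. Medians after thinning were 30 in the nuclei led by Glyma.02G281500, 36 in those led by Glyma.17G083600 and 41 in those led by Glyma.09G025800. Embryo nuclei had a median of 12, epidermis nuclei of 8 and outer integument nuclei of 9. In the 94 members with an odd ratio of 4 or more, 5.51% of endosperm nuclei and 71.6% of the other nuclei had no fragment after thinning.

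The 2 distributions overlapped little. Of 2860 other nuclei, 66 (2.31%, interval 1.79 to 2.93%) reached the median of the endosperm group, and 7 of these 66 had no UMI of the 3 genes. Of 381 endosperm nuclei, 12 (3.15%, 1.64 to 5.44%) were at or under the median of the other nuclei, and 11 of these 12 also met another tissue list, as 73 of all 381 did (19.2%). Endosperm nuclei that met another list had a median of 27 fragments and those that met none 37.5.

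**Figure D5:**
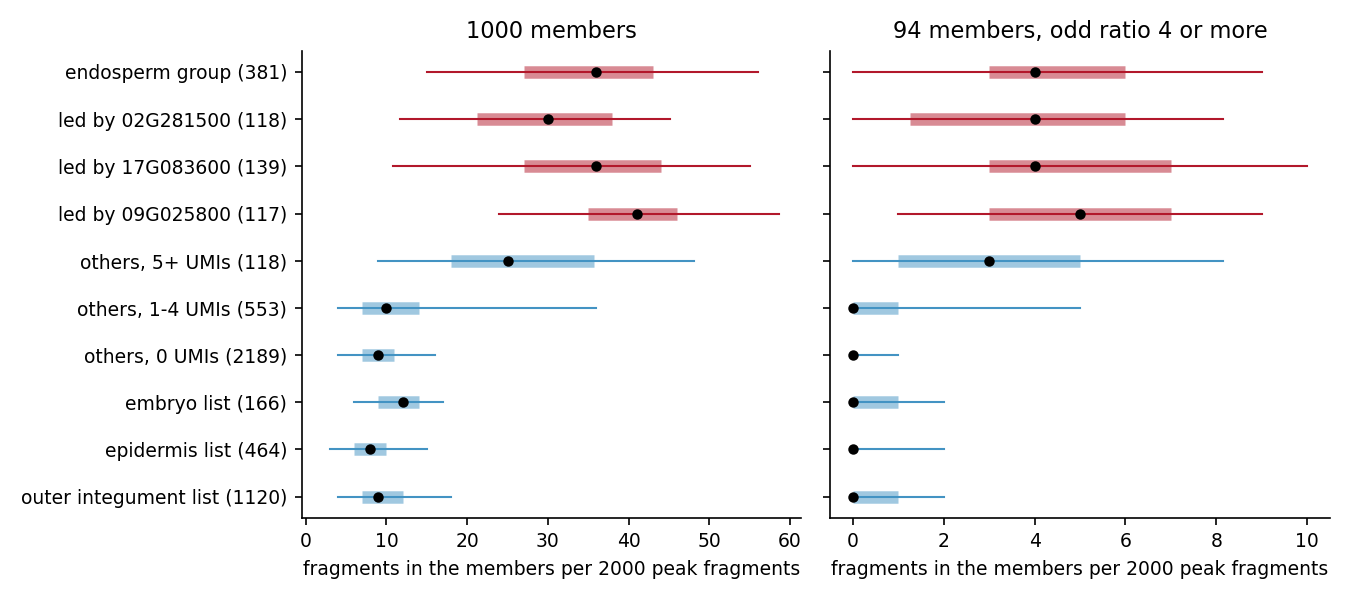
Fragments in the members among 2000 peak fragments drawn from each even-numbered nucleus (x axis), for all 1000 members and for the 94 with an odd ratio of 4 or more. Points are medians over nuclei, thick bars quartiles and thin lines the 5th to 95th percentiles, with the number of nuclei in brackets; the endosperm group has a median of 36 and the other nuclei without a UMI of the 3 rule genes one of 9.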

How the data were processed

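Soybean nuclei were profiled with a Multiome assay. The authors ran bcl2fastq and Cell Ranger ARC on assembly v2.0 with the Wm82.a2.v1 gene models. Background RNA was removed with SoupX before the authors deposited UMI counts, which are whole numbers per gene and nucleus. For ATAC they deposited fragments with read counts and 1 peak list for all nuclei together. Whether fragments were filtered later was not given in the sources read.

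The libraries held 39881831 UMIs and 125691389 fragments, 90.3% of the latter on 8636 nuclei (median 2945.5 UMIs and 7840 fragments, range 129 to 294125). Each fragment counted once per overlapped peak. Sums have exact Poisson intervals and their ratios exact conditional ones. Shares have exact binomial (Clopper-Pearson) intervals, or Wilson intervals for fragment lengths. Fragments are amplified by PCR, so intervals of sums and ratios cover counting error only. Intervals of shares treat the peaks, nuclei or fragments counted as independent. Nuclei were no replicates, and no test between groups was made. Doublets were neither called nor removed. Members, lists and comparisons were chosen with earlier results of these data known. The peaks named are the 10 of highest odd ratio, 3 on each side of the limit and 3 for each kind of endosperm nucleus; others were chosen after their values were seen. The rule was also run on simulated counts without spread between nuclei, and no result here rests on that run. Python 3.11.15, numpy 2.4.6, scipy 1.17.1 and pandas 2.3.3 were used. Peak sequences and neighbouring genes, planned at first, were not analysed here.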

Additional observations from a re-analysis of the deposited data

How the results depend on the processing

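Every one of the 16 alternatives left the median ratio of the peaks chosen over 1, from 1.88 to 3.61 over all of them, but the identity of the peaks depended on the rule. The fragment minimum mattered most. A minimum of 100 fragments kept 336 of the 1000 members and gave a median ratio of 3.58, a median share of 14.1 per 1000 peak fragments in endosperm nuclei and a median ratio of 3.59 in the nuclei led by Glyma.17G083600. Counting 200 fragments over all nuclei kept 338 members and gave 3.61, 14.3 and 3.60, and counting cut sites inside the peak kept 396 and gave 3.48, 14.6 and 3.50. A minimum of 400 kept 215 members and gave a median share of 25.4. Then 375 peaks were at least 2-fold higher in the even-numbered nuclei (1.27% of the peaks tested), against 840 in the report (2.82%). With 5 added to both values, which pulls ratios of weak peaks toward 1, 426 peaks were at least 2-fold higher (0.826% of the peaks tested). The median share was then 21.1. The median share, 18.2 in the report, also moved to 17.1 as a mean over nuclei, 14.1 when scaled to all fragments, 21.0 against other nuclei without a UMI of the 3 genes, 20.3 without the nuclei led by Glyma.02G281500 and 19.3 without those led by Glyma.17G083600. Of 2 alternatives chosen after the data were seen, leaving out group nuclei that met another list gave 19.4, and leaving out the 5 percent of nuclei with the most fragments gave 21.6. In the other settings the median ratios stayed within the counting interval of the single peak at the median. For the whole group that interval runs from 1.835 to 3.261. It is wide and is not an interval of the median over 1000 peaks. The median share stayed within an interval taken over nuclei, which is not counting error and treats nuclei as independent. The count of members at least 2-fold higher stayed within 1.5 times. The ratios of the 10 named peaks, 6.27 to 8.06 in the report, stayed over 1 in all 16 and ran from 3.40 (rank 6, with 5 added) to 26.3 (rank 3, against other nuclei without a UMI of the 3 genes), where rank 1 had 3.47 and 14.4. The share in the middle part of chromosomes, 34.6% in the report, ran from 25.2% to 42.2%. Peaks under the fragment minimum were left out of the choice, so weak peaks open in endosperm can be missed. Alternatives on peak sequence and on RNA of neighbouring genes were not run. No paired analysis was possible because there is 1 library of each kind and no test between groups.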
